A study of Mus musculus with 15 samples.

Results

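The miR-29 family of mouse microRNAs comprises 7 mature names: mmu-miR-29a-3p, mmu-miR-29b-3p and mmu-miR-29c-3p, and the 5p strands mmu-miR-29a-5p, mmu-miR-29b-1-5p, mmu-miR-29b-2-5p and mmu-miR-29c-5p, written below without the prefix for mouse. The members were chosen by name from 15 libraries of small RNA, in which 1558 mature names occurred. All 7 were read in every library and all 7 were among the 693 names that passed the filter on low counts. The family was selected on its low measured levels in the embryo libraries against the adult ones, known from earlier results of these data, so its embryo levels are given below as a description, with no test.

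The RNA came from a commercial panel of mouse total RNA (Mouse Total RNA Master Panel), with 1 library per tissue. The labels give no strain, age, sex or number of animals, and no treatment. Of the 15 libraries, 3 are of nervous tissue (brain, spinal cord, eye), 9 are of other adult tissues (heart, kidney, liver, lung, salivary gland, smooth muscle, spleen, stomach, testis) and 3 are of whole embryos labelled as 11, 15 and 17 days. The source field of the 17-day embryo gives 15 days, and the title was followed. Libraries were made by AQ-seq, a small RNA protocol with randomized adapters designed to reduce ligation bias. Such bias could otherwise set the measured ratio of a hairpin's strands.

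A microRNA is cut from a hairpin whose arms give a 5p and a 3p strand. Usually 1 strand is kept in the silencing complex, and its seed, bases 2 to 8, pairs with target messages. The miR-29 3p strands are known as repressors of extracellular matrix genes such as collagens and elastin, and of the de novo DNA methyltransferases. Low miR-29 is known from fibrosis of heart, lung and liver, and in neurons the family rises with maturation and restrains genes that promote cell death.

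The sequences show why the 3 names of the 3p arm count as 1 family while the 5p strands do not. They are RefSeq sequences on GRCm38.p6, and all 7 names were found there. Each is written 5′ to 3′ with its seed in capitals.
miR-29a-3p: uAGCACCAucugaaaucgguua
miR-29b-3p: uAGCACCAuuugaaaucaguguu
miR-29c-3p: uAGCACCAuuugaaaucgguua
miR-29a-5p: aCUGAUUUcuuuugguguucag
miR-29b-1-5p: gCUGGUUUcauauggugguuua
miR-29b-2-5p: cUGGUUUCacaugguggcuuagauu
miR-29c-5p: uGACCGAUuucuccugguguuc

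The 3 names of the 3p arm share 1 seed, which no other of the 1679 mature names in the table has. With positions counted from 1 at the 5′ end, miR-29a-3p and miR-29c-3p differ by C10U alone over 22 bases. Between miR-29c-3p and miR-29b-3p the differences are G18A, U21G and A22U, and miR-29b-3p has 23 bases. miR-29b-3p ends in AGUGUU, a motif described as a signal for import into the nucleus. Of the 7 members it alone holds that motif, which 12 of the 1679 names (0.715%) contain and 2 have at their end. The 4 strands of the 5p arm have 4 different seeds. miR-29b-1-5p and miR-29b-2-5p resemble each other when shifted by 1 base, with 2 differences over 21 bases. The shift gives them different seeds. miR-29a-5p and miR-29c-5p also resemble each other when shifted by 2 bases, with 3 differences over 20 bases.

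The family is made from 4 hairpins in 2 pairs. Mir29a (chr6:31062660-31062747) and Mir29b-1 (chr6:31063023-31063093) lie 275 bases apart on the minus strand of chromosome 6. There, 2 bases of Mir29b-1 overlap the exon of the long noncoding RNA Gm27019, and Mir29a overlaps no other annotated gene. Mir29b-2 (chr1:195037040-195037120) and Mir29c (chr1:195037547-195037634) lie 426 bases apart on the plus strand of chromosome 1. Both lie in an exon of their noncoding host gene A330023F24Rik and, on the opposite strand, in a UTR of Cd46. Mature miR-29b-3p is the same from Mir29b-1 and Mir29b-2, so its reads cannot be split between the pairs, whereas the 5p strands can. How reads that fit several places, or that carry mismatches, were counted is not given in the sources used here. Counts of miR-29a-3p and miR-29c-3p, which differ by 1 base, are therefore uncertain to that extent. So are those of the 5p strands of both miR-29b hairpins, and those of miR-29a-5p and miR-29c-5p.

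The testis library was the shallowest, with 148052 reads, and the 14 others held between 922137 and 3161463, so testis values are the least precise. The 3 neuronal miRNAs miR-124-3p, miR-9-5p and miR-128-3p summed to 11.3% to 21.0% of reads in the nervous libraries and to 0.0149% to 0.265% in the other adult ones, with none at 0. The library labelled smooth muscle held 27.9% of its reads in 3 miRNAs of gut and kidney epithelium, the highest of all libraries. Eye, counted as nervous, held 20.1% in 6 miRNAs of retina, lens and pigment epithelium, against 0.533% in brain and 0.499% in spinal cord. It also held 3.60% in miRNAs of heart and skeletal muscle. In bulk tissue, fewer cells that express a miRNA and less of it per cell cannot be told apart. Levels are given as the percent of a library's reads, or as CPM, reads scaled to a common library size, after TMM scaling, which adjusts for makeup differences between libraries. Intervals are 95% intervals, Clopper-Pearson for percents and Poisson for CPM and ratios of counts. Counting error is all they cover: PCR copies of 1 molecule are not independent reads.

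The family took a large share of reads in every adult tissue. Its 7 names together held 8.19% of reads in brain, 7.61% in salivary gland and 6.78% in spinal cord. The share was 5.45% in spleen, 4.83% in kidney, 4.57% in lung, 4.48% in eye and 4.39% in liver. It was 3.14% in testis, 2.79% in heart, 2.40% in stomach and 2.37% in smooth muscle. In the embryos it was 0.244% at 11 days, 0.117% at 15 days and 0.161% at 17 days. Every adult library thus lay above every embryo library.

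miR-29a-3p, the 3p strand of the chromosome 6 hairpin Mir29a, was the most abundant member in all 15 libraries. It ranked between 3rd, in spinal cord, and 14th, in stomach, among all names of an adult library. In CPM its order ran from salivary gland (55553) through liver (52573), spleen (47267), brain (47180), heart (40147) and lung (39455) to spinal cord (32691). Below these stood smooth muscle (30101), eye (29008), kidney (22903), stomach (18449) and testis (14628). Neighbours in this order were apart by their counting intervals except spleen and brain. The order depends on scaling: as a percent of reads brain led with 5.33%, before spinal cord with 4.43% and salivary gland with 4.19%, and stomach was lowest with 1.56%. The highest adult CPM was 3.80 times the lowest, so adult tissues differed by little compared with the gap to the embryos.

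miR-29c-3p, the partner made on chromosome 1, varied among adult tissues by 10.1-fold in CPM, the most of the 3 names of the 3p arm on that scale. In percent of reads it varied by 5.48-fold and miR-29b-3p by 6.74-fold. It was highest in salivary gland (29165 CPM), liver (24774), eye (21111), heart (17143), brain (15800) and lung (14832). It was lower in kidney (13883), spinal cord (11610), spleen (7219), smooth muscle (7036), stomach (5569) and testis (2898). The intervals of spleen and smooth muscle overlapped, and all other adult neighbours in this order were apart. In CPM eye stood low in the order of miR-29a-3p, above kidney, stomach and testis, and near the top in that of miR-29c-3p, below salivary gland and liver.

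miR-29b-3p, the strand that both pairs produce, stood at 15545 CPM in salivary gland, 15319 in spleen, 10053 in lung, 9278 in liver, 8500 in brain and 6668 in kidney. It stood at 4887 in spinal cord, 3959 in stomach, 3911 in heart, 3890 in smooth muscle, 3489 in eye and 2599 in testis. With total counts spleen was highest and heart lowest. In CPM salivary gland and spleen could not be told apart by counting error, nor could stomach, heart and smooth muscle as neighbours. Spleen, near the top for this strand, stood above smooth muscle, stomach and testis alone among adult tissues for miR-29c-3p.

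**Figure D1:**
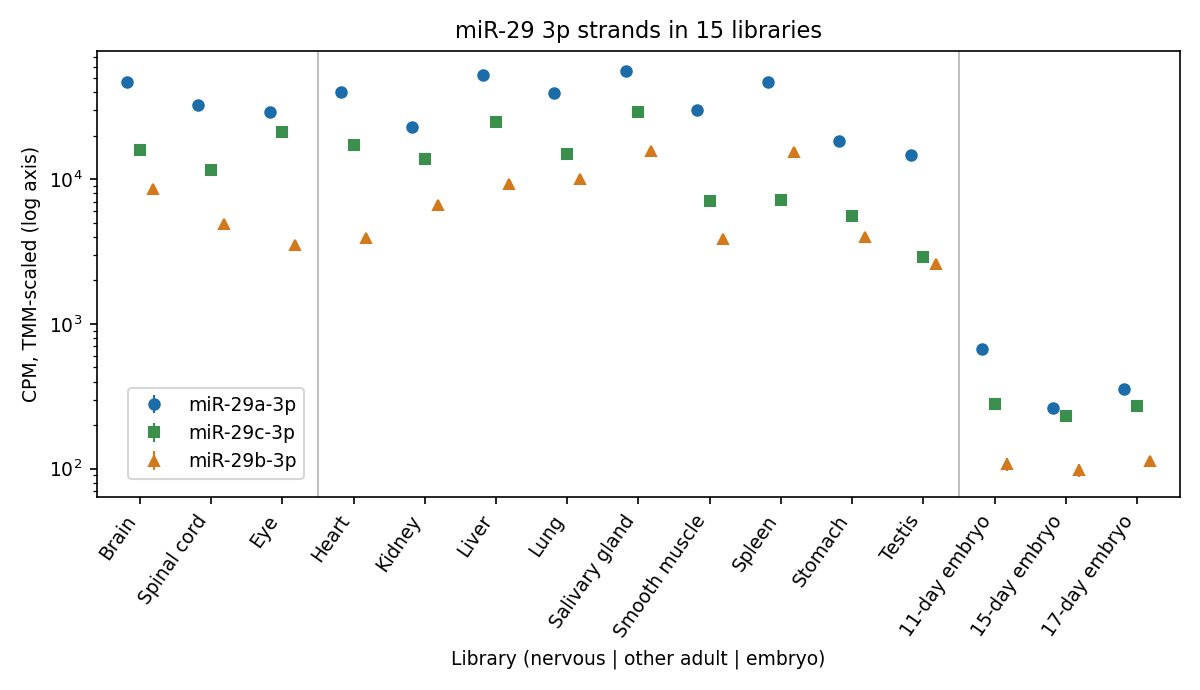
TMM-scaled CPM (log axis) of miR-29a-3p, miR-29c-3p and miR-29b-3p in each library, with 95% Poisson intervals that are mostly smaller than the symbols. The 12 adult libraries lie between 2599 and 55553 CPM and the 3 embryo libraries between 97.1 and 671 CPM.

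Within the summed 3p reads the makeup differed from tissue to tissue. miR-29a-3p made up 52.7% in kidney to 73.4% in smooth muscle among the adult libraries. The share of miR-29c-3p was 39.4% in eye (39.1 to 39.7), 31.9% in kidney (31.6 to 32.3) and 10.3% in spleen (10.2 to 10.5). The share of miR-29b-3p was 21.9% in spleen (21.7 to 22.2), 6.51% in eye (6.36 to 6.65) and 6.39% in heart (6.21 to 6.57). Eye and spleen thus stood at opposite ends for miR-29c-3p. Of the reads of miR-29a-3p and miR-29c-3p together, the latter held 13.2% in spleen, the lowest value of all libraries.

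Nervous and other adult tissues did not differ detectably in this makeup. The share of miR-29c-3p was 22.1% in brain, 23.6% in spinal cord and 39.4% in eye, against a lowest of 10.3%, a median of 23.1% and a highest of 31.9% in the other adult tissues. The class means were 28.4% ± 9.6 (SD, n = 3) and 22.5% ± 7.5 (SD, n = 9), a difference of 5.86 points (two-sided exact permutation p = 0.28, adjusted p = 0.28 over the 3 share comparisons made). The share of miR-29b-3p was 11.9% in brain, 9.94% in spinal cord and 6.51% in eye, against a lowest of 6.39%, a median of 14.2% and a highest of 21.9%. The difference of the means was -4.12 points (exact permutation p = 0.18, adjusted p = 0.27). With 1 library per tissue, these tests measure the spread between tissues of a class, which may be partly technical, and not that between animals.

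**Figure D2:**
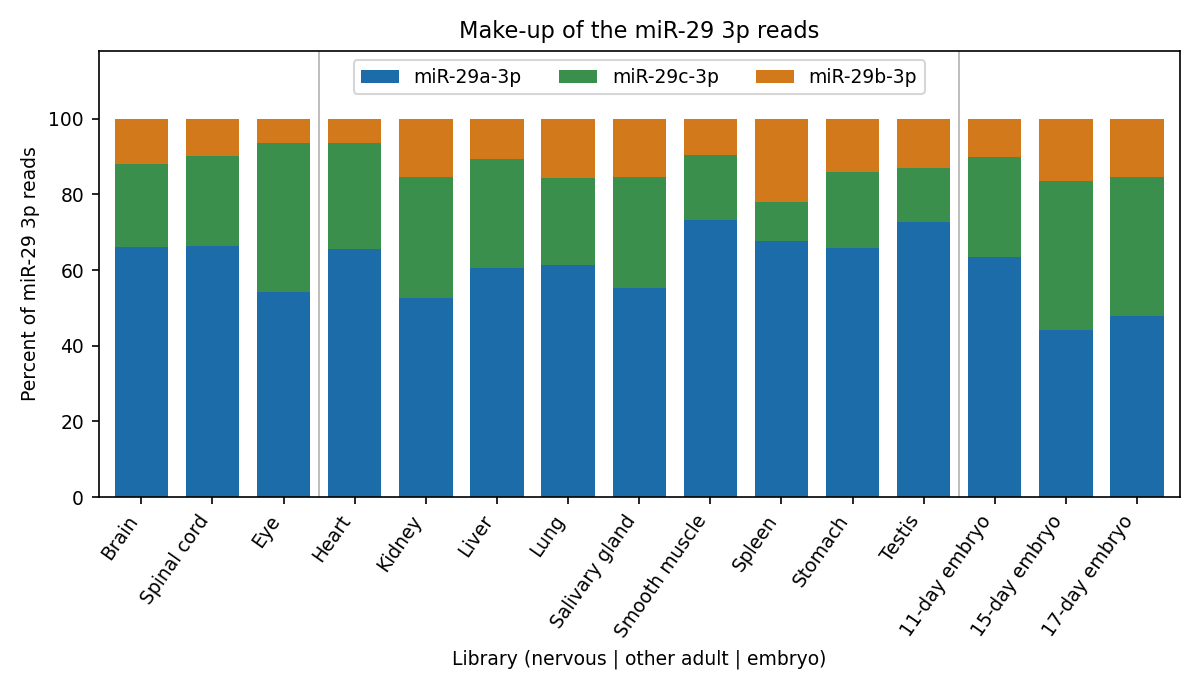
Percent of the miR-29 3p reads of each library that were miR-29a-3p, miR-29c-3p or miR-29b-3p, as stacked bars. miR-29c-3p ranges from 10.3% in spleen to 39.4% in eye, and miR-29a-3p falls below 50% in the 15- and 17-day embryos.

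The 5p strands were far rarer than the 3p strands. miR-29a-5p was highest in lung (534 CPM), spleen (513), heart (471), liver (418) and brain (413), and lowest in stomach (176) and testis (145), the last from 33 reads. With total counts brain (467) and spinal cord (442) led, heart (211) and liver (210.2) stood lower, and smooth muscle (145) was lowest. miR-29c-5p was highest in eye (353 CPM), brain (328) and spinal cord (323), followed by heart (293), kidney (266), liver (249), lung (230) and salivary gland (229). It was lower in stomach (163), smooth muscle (159), spleen (82.1) and testis (48.2, from 11 reads). The 3 nervous libraries held the 3 highest values, but eye, brain, spinal cord, heart and kidney were not apart as neighbours by counting error.

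miR-29b-1-5p, made on chromosome 6, varied by 2.21-fold among adult tissues (3.98-fold with scaling to total counts), from 30.5 CPM in salivary gland to 67.6 in liver, and none of its adult neighbours in order were apart. miR-29b-2-5p, made on chromosome 1, varied by 7.57-fold (13.3-fold with total counts). It stood at 176 CPM in spinal cord (161 to 192), 168 in brain (155 to 182) and 111 in eye (97.5 to 127). In the other adult tissues it ran from 23.3 in spleen over a median of 47.5 in lung to 104 in kidney (88.3 to 121). In TMM-scaled CPM the 3 nervous libraries lay above the 9 others, although the intervals of eye and kidney overlapped. With total counts eye (91.9) lay below kidney (113).

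**Figure D3:**
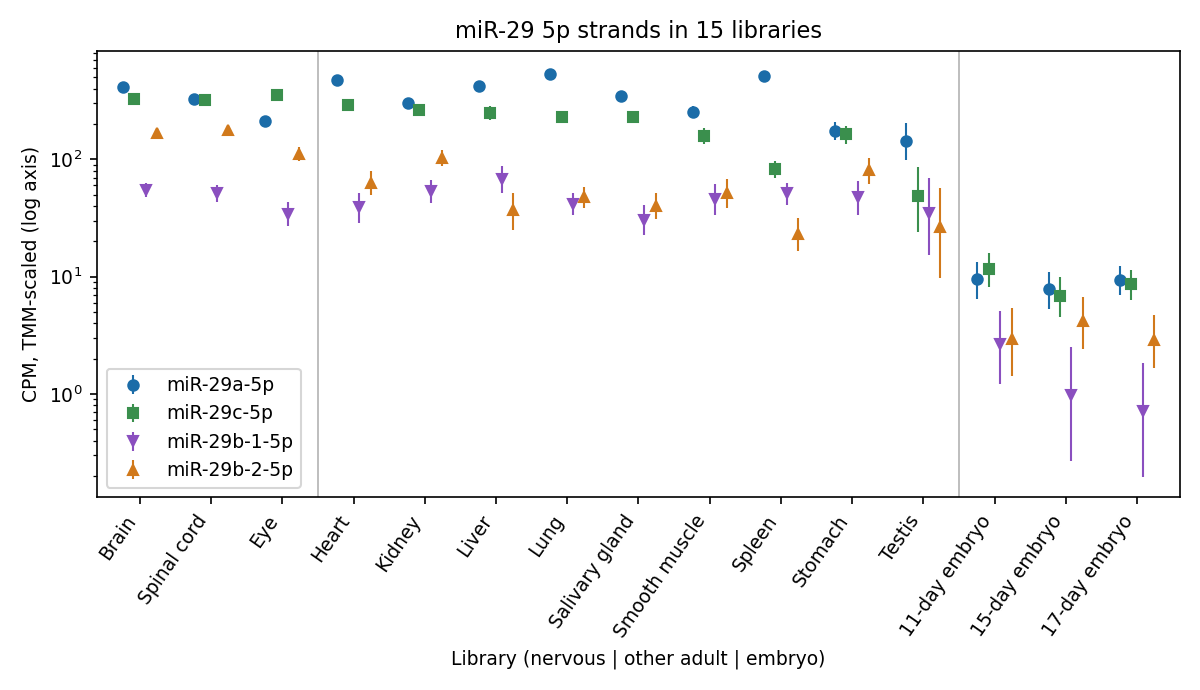
TMM-scaled CPM (log axis) of the 4 names of the 5p arm in each library, with 95% Poisson intervals. miR-29b-2-5p lies at or above 111 CPM in the 3 nervous libraries and at or below 104 CPM in the other adult ones, and miR-29b-1-5p lies between 30.5 and 67.6 CPM in all 12.

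Of the 7 members, 1 differed in abundance between nervous and other adult tissues, against 41.0% of the 693 names tested with edgeR's quasi-likelihood test, or 28.4% higher and 12.6% lower in nervous tissue. Over all names 197 calls were higher and 87 lower, and 226 and 56 with scaling to total counts. miR-29b-2-5p rose, from 52.6 CPM ± 26.2 (SD, n = 9) to 152 ± 35.2 (SD, n = 3). Its fitted log2 change was 1.52 ± 0.44 (SE, edgeR adjusted p = 0.013). The call was lost without brain (edgeR adjusted p = 0.071) and without spinal cord (edgeR adjusted p = 0.082). miR-29c-5p had a log2 fold change of 0.81 ± 0.48 (edgeR adjusted p = 0.18). Scaling to total counts, under which the median over all names shifted by 0.47 on the log2 scale, brought it past the threshold at 1.39 (edgeR adjusted p = 0.022). In TMM-scaled CPM both strands stood higher in all 3 nervous libraries than in each other adult one, as did 20.5% of all names. With total counts this did not hold for miR-29b-2-5p, which was lower in eye than in kidney. For miR-29c-5p eye (291.0) and kidney (290.8) were then nearly level, well within counting error. The main strands showed no such pattern. Their log2 fold changes were 0.02 ± 0.49 for miR-29a-3p, 0.25 ± 0.59 for miR-29c-3p and -0.49 ± 0.59 for miR-29b-3p (edgeR adjusted p = 0.97, 0.74 and 0.50). Standard errors of this size leave room for changes of 2-fold or more. Those of miR-29a-5p and miR-29b-1-5p were -0.15 ± 0.47 and 0.03 ± 0.43 (edgeR adjusted p = 0.79 and 0.95).

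The pair on chromosome 1 supplied more of the miR-29b 5p reads in nervous tissue. miR-29b-1-5p made up 24.7% of the reads of both miR-29b 5p names in brain (21.7 to 27.8, 795 reads), 23.6% in eye (18.95 to 28.8, 305 reads) and 22.6% in spinal cord (19.4 to 26.1, 641 reads). In the other adult tissues the share was lowest in kidney, at 34.0% (28.1 to 40.3, 247 reads), followed by stomach with 37.0% and heart with 38.3%. Salivary gland had 43.2%, lung 46.8%, smooth muscle 46.9%, and testis 57.1% from 14 reads (28.9 to 82.3). It was highest in liver, at 64.8% (54.1 to 74.6, 91 reads), and spleen, at 68.8% (59.96 to 76.6, 128 reads). All 3 nervous libraries lay below all 9 others, though the intervals of eye and kidney overlapped.

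The means of that share were 23.6% ± 1.0 (SD, n = 3) in nervous tissue and 48.6% ± 12.4 (SD, n = 9) in the other adult tissues. The difference of -24.9 points had a two-sided exact permutation p of 0.0091, adjusted to 0.027 over the 3 share comparisons, where the 220 splits allow no p below 0.0045. The call was lost without any 1 nervous library (exact permutation p = 0.036, adjusted p = 0.11 in each case). Those fits have far fewer splits and a higher smallest possible p, so this loss cannot show whether the difference is fragile. The call was also lost without liver or spleen (adjusted exact permutation p = 0.055 in both). It was also lost without testis (adjusted exact permutation p = 0.073), whose 14 reads fall under a minimum of 20, and without testis and smooth muscle together (adjusted exact permutation p = 0.10). The difference itself stayed between -26.7 and -22.4 points in all of these fits. Summed neuronal markers were at 21.0% of reads in brain, 11.9% in eye and 11.3% in spinal cord against at most 0.265% elsewhere in adults. All 3 of 3 neuronal markers were read in each library. Summed oligodendrocyte markers also stood higher in all nervous libraries, at 0.363% in eye to 4.58% in spinal cord. Elsewhere in adults they were at most 0.113%, and miR-219a-2-3p among them had no read in heart and liver. The part of neurons or oligodendrocytes in the result was not tested.

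**Figure D4:**
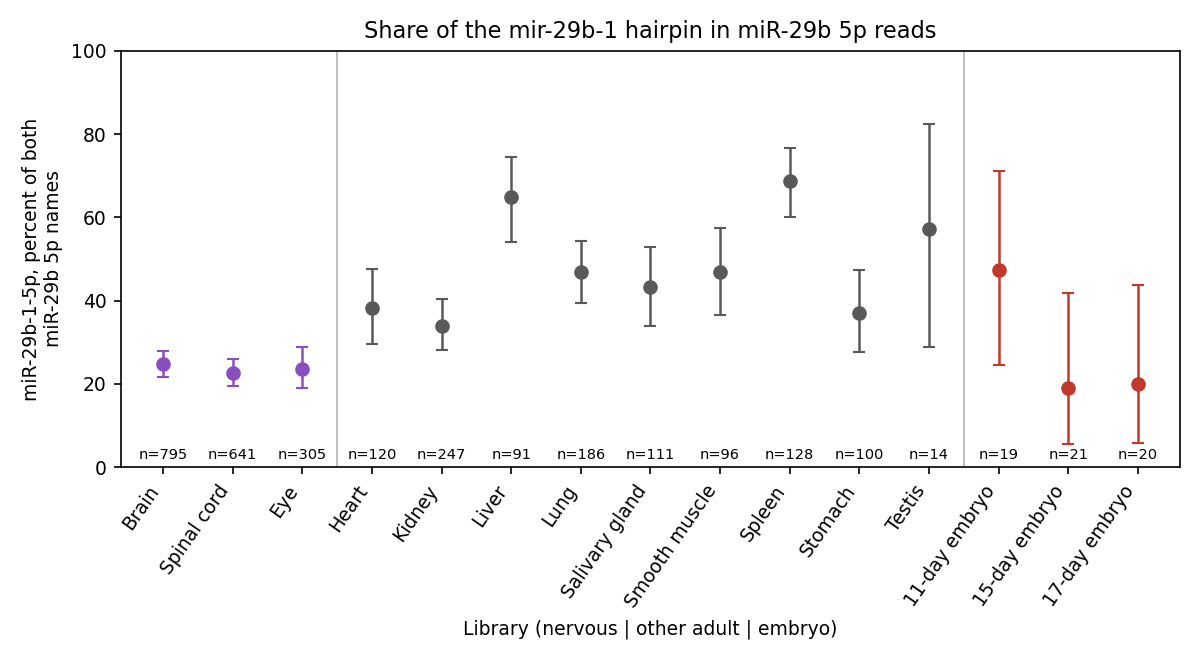
miR-29b-1-5p reads as a percent of the reads of both miR-29b 5p names in each library, with 95% Clopper-Pearson intervals and the number of reads at the foot (purple nervous, grey other adult, red embryo). The nervous libraries lie at 22.6% to 24.7% and the other adult ones at 34.0% to 68.8%.

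The same pairs could be compared through the 5p strands of Mir29a and Mir29c. Of the reads of miR-29a-5p and miR-29c-5p, the latter held 62.6% in eye (59.8 to 65.4), 49.8% in spinal cord (47.4 to 52.1) and 44.3% in brain (42.4 to 46.2). Among the other adult tissues it held a lowest of 13.8% in spleen (11.7 to 16.1), a median of 38.4% in heart and a highest of 48.1% in stomach (41.9 to 54.3). Brain, unlike eye, lay within the range of the other adult tissues. Spleen, the tissue with the highest share of miR-29b-1-5p, had the lowest share of miR-29c-5p, and both values lean to the pair on chromosome 6. Spleen also held the most leukocyte miRNA, 20.5% of reads in 3 markers against 0.115% to 3.22% in the other adult libraries, whose part in this was not tested.

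Over the 12 adult libraries the log2 ratio of miR-29b-2-5p to miR-29b-1-5p went with that of miR-29c-5p to miR-29a-5p, with a Pearson r of 0.83 and a Spearman rho of 0.90. Without spleen and liver, the libraries farthest from the median of the former ratio, r was 0.86, and over the 9 other adult libraries it was 0.79. No read enters both ratios, but they share libraries and depth. For the 3p strands the agreement was looser: the log2 ratio of miR-29c-3p to miR-29a-3p had an r of 0.54 with the miR-29b ratio, and of 0.76 with the 5p ratio of the same hairpins. The latter was 0.40 without spleen and eye.

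**Figure D5:**
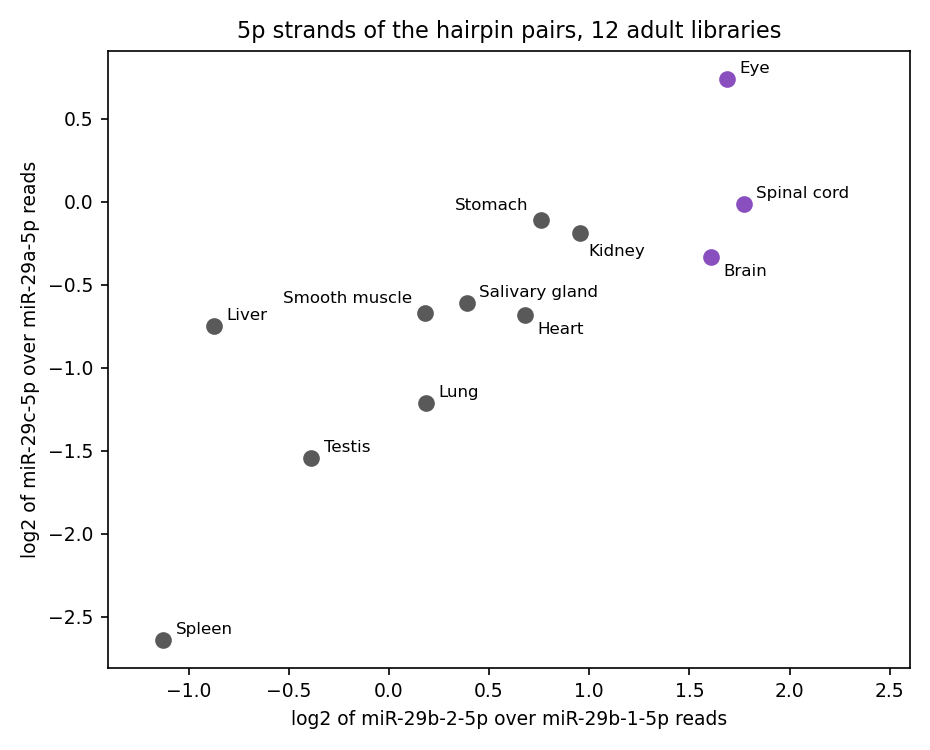
Log2 ratio of miR-29c-5p to miR-29a-5p reads against that of miR-29b-2-5p to miR-29b-1-5p reads (0.5 added to each count) in the 12 adult libraries, nervous in purple and others in grey. Higher values mean more reads from the pair on chromosome 1, and spleen lies lowest on both axes.

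The 3p arm gave most reads of mir-29a, of mir-29c and of both mir-29b hairpins together in every library. The 5p share of mir-29a, the part of all its mature reads that came from the 5p arm, ran in adults from 0.625% in salivary gland (0.574 to 0.679) to 1.34% in lung (1.26 to 1.42). That of mir-29c ran from 0.779% in salivary gland (0.701 to 0.864) to 2.84% in stomach (2.38 to 3.37). For mir-29b, with both 5p names summed, it ran from 0.452% in salivary gland (0.372 to 0.545) and 0.484% in spleen (0.404 to 0.575) to 4.45% in spinal cord (4.12 to 4.80). Salivary gland was thus lowest for all 3, and the highest tissue differed.

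Arm usage of mir-29a and mir-29c did not differ detectably between nervous and other adult tissues. The 5p share of mir-29a was 0.868% in brain, 0.988% in spinal cord and 0.722% in eye, with a mean of 0.859% ± 0.133 (SD, n = 3) against 1.005% ± 0.237 (SD, n = 9). The change in log2 odds was -0.20 ± 0.26 (SE, edgeR adjusted p = 0.73). For mir-29c the share was 2.04% in brain, 2.71% in spinal cord and 1.64% in eye, with a mean of 2.13% ± 0.54 against 1.63% ± 0.64. The change in log2 odds was 0.47 ± 0.32 (edgeR adjusted p = 0.44). In the same fit 5.88% of 238 hairpins were called. The 5p share of mir-29b, whose 3p reads come from both pairs, was not tested. It was 2.55% in brain, 4.45% in spinal cord and 4.01% in eye, against a lowest of 0.452%, a median of 2.30% and a highest of 3.14% in the other adult tissues. Spinal cord and eye thus lay above all 9 others and brain lay among them. The means were 3.67% ± 0.99 (SD, n = 3) and 1.74% ± 1.01 (SD, n = 9).

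In the embryos all 7 members were lower than in every adult library, as were 10.4% of the 693 names. This is the contrast by which the family was picked. miR-29a-3p stood at 671, 261 and 353 CPM in the 11-, 15- and 17-day embryos, where the lowest adult value was 21.8 times the highest embryo value. miR-29b-3p stood at 108, 97.1 and 114 CPM, with a ratio of 22.9, and miR-29c-3p at 280, 232 and 272 CPM, with a ratio of 10.3. With scaling to total counts these ratios were 10.4, 7.28 and 6.38, so the size of the gap depended on the scaling and its direction did not. The fitted log2 fold changes against the other adult tissues were -6.38, -6.22 and -5.70 for the 3p strands in that order. For miR-29a-5p, miR-29b-1-5p, miR-29b-2-5p and miR-29c-5p they were -5.30, -4.95, -3.96 and -4.40. For mir-29a and mir-29c the 5p strand was thus less reduced than the 3p strand of the same hairpin. Both miR-29b 5p names were less reduced than miR-29b-3p, whose reads cannot be split between Mir29b-1 and Mir29b-2. Those 5p names had 4 to 17 reads in the embryo libraries.

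The 5p shares of the embryos were also high. That of mir-29a was 1.39% at 11 days (0.954 to 1.96), 2.90% at 15 days (1.99 to 4.07) and 2.59% at 17 days (1.94 to 3.38), above the adult maximum of 1.34%. That of mir-29c was 3.96% (2.83 to 5.37), 2.86% (1.91 to 4.11) and 3.08% (2.28 to 4.06), against an adult maximum of 2.84%. For mir-29b it was 4.97% (3.02 to 7.66), 5.01% (3.13 to 7.56) and 3.07% (1.88 to 4.70), against an adult maximum of 4.45%. These shares rest on 19 to 52 reads of the 5p arm, and the intervals of mir-29c and mir-29b took in their adult maxima at all 3 stages. For mir-29a the interval took in the adult maximum at 11 days and lay above it at 15 and 17 days.

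Between the embryo stages miR-29a-3p moved most of the 3 names of the 3p arm. It was lower at 15 than at 11 days by 2.57-fold (2.39 to 2.77), from 2266 reads to 1071 reads. It was 1 of 2 members with a fall of over 2-fold between these stages, as found in 18.2% of the 693 names; the other, miR-29b-1-5p, went from 9 reads to 4. From 15 to 17 days, 0 of 7 members moved by over 2-fold (7.79% of all names were lower and 5.34% higher by as much). From 11 to 17 days, 1 of 7 fell by over 2-fold, miR-29b-1-5p again, as did 24.2% of all names. With total counts miR-29a-3p was also past 2-fold there, at 2.02-fold lower. The rise of miR-29a-3p from 15 to 17 days was 1.35-fold (1.25 to 1.46), so that 17 days lay between the other stages. miR-29c-3p was lower at 15 than at 11 days by 1.21-fold (1.10 to 1.32) and higher at 17 than at 15 days by 1.17-fold (1.08 to 1.27). Its 11- and 17-day levels were within counting error of each other (0.97, 0.893 to 1.05). With total counts its 17-day level was lower than that at 11 days (0.915, 0.843 to 0.994). miR-29b-3p was within counting error between 11 and 15 days (0.903, 0.781 to 1.04) and between 11 and 17 days (1.06, 0.928 to 1.21). With total counts it was lower at 15 than at 11 days by 1.29-fold (1.12 to 1.496). With DESeq2 size factors, another scaling, it was lower there by 1.19-fold (1.03 to 1.37). All 3 names of the 3p arm had their lowest value at 15 days, for miR-29b-3p within counting error of that at 11 days in TMM-scaled CPM. With 1 library per stage these differences have no replicate check.

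With that fall the makeup of the 3p reads changed. miR-29a-3p held 63.4% of them at 11 days (61.8 to 65.0), near the adult median of 65.8%, but 44.3% at 15 days (42.3 to 46.3) and 47.8% at 17 days (46.2 to 49.3), below the lowest adult share of 52.7%. miR-29c-3p held 26.5%, 39.3% and 36.8%. The 5p strands had few reads. The ratios of miR-29a-3p were 0.389 (0.361 to 0.419) at 15 over 11 days and 0.525 (0.494 to 0.558) at 17 over 11 days. The intervals of miR-29a-5p lay above these, so by counting error it did not fall as far as miR-29a-3p. Those of miR-29b-1-5p took them in and were too wide to settle whether it shifted alike. At 15 over 11 days miR-29a-5p was at 0.82 (0.49 to 1.39) and miR-29b-1-5p at 0.37 (0.08 to 1.31). At 17 over 11 days they were at 0.99 (0.62 to 1.58) and 0.27 (0.06 to 0.97). With DESeq2 size factors, another scaling, the last interval took in 1 (0.07 to 1.04). miR-29a-5p had 32, 32 and 52 reads, or 9.48, 7.80 and 9.36 CPM, and miR-29c-5p had 39, 28 and 48 reads, or 11.6, 6.83 and 8.64 CPM. miR-29b-1-5p had 9, 4 and 4 reads, and miR-29b-2-5p had 10, 17 and 16. miR-29b-1-5p thus held 47.4% (24.4 to 71.1), 19.0% (5.45 to 41.9) and 20% (5.73 to 43.7) of the miR-29b 5p reads, with intervals that overlap. Erythroid miRNAs, read in all 3 of 3 markers, made up 3.49% to 9.63% of embryo reads (0.513% to 12.6% in adults). Mesenchymal miRNAs, in 2 of 2 markers, made up at most 5.31% of embryo reads and at most 0.567% of adult reads. The part of either in these levels was not tested.

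The miRNAs closest to the family in adult pattern included 2 members of the let-7 family, known for developmental timing. Over the 12 adult libraries, let-7g-5p had the highest Pearson r of log2 CPM with miR-29a-3p (r = 0.89, Spearman rho = 0.88) and with miR-29c-3p (r = 0.80, rho = 0.78) among 686 names outside the family. For miR-29a-3p, let-7f-5p (r = 0.81) and miR-33-3p (r = 0.80) came next. For miR-29b-3p these were miR-222-5p (0.84), miR-1839-5p (0.82) and miR-33-5p (0.78). After let-7g-5p, miR-29c-3p was closest to miR-1982-3p (0.77) and miR-874-5p (0.77). The values share library depth and scaling, and miR-222-5p, miR-1982-3p and miR-874-5p each had no read in at least 1 adult library. Within the family, miR-29a-3p had an r of 0.85 with miR-29a-5p, 0.78 with miR-29b-3p and 0.74 with miR-29c-3p. Of the pair on chromosome 1, miR-29b-2-5p had an r of 0.74 with miR-29c-5p, against 0.20 with miR-29b-1-5p. The matching value of the pair on chromosome 6 was lower: miR-29a-5p had an r of 0.34 with miR-29b-1-5p.

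Embryo levels of let-7g-5p were 1436 to 3910 CPM, below the adult range of 5698 to 25976. Those of let-7f-5p and miR-1839-5p also lay below their adult ranges. The embryo levels of miR-33-3p, miR-33-5p, miR-222-5p, miR-1982-3p and miR-874-5p lay within theirs, so a like adult pattern did not always go with low embryo levels. Of the 9 let-7 and miR-98 names listed for developmental timing, 6 were lower and 0 higher in embryos than in other adult tissues by edgeR (17.2% and 27.0% of all names). Their median log2 fold change was -2.47, against 0.10 for all names. They ranged from -4.15 for let-7b-5p (edgeR adjusted p = 0.00017) to -0.15 for let-7e-5p (edgeR adjusted p = 0.83). From 11 to 15 days, 8 of the 9 were over 2-fold higher, as were 16.2% of all names, and 0 were over 2-fold lower, whereas miR-29a-3p was lower. Most of that rise was lost by 17 days. Their median log2 fold change was 1.52 from 11 to 15 days and -1.19 from 15 to 17 days (-0.02 and -0.07 for all names). From 11 to 17 days the median of these 9 was 0.41 (-0.04 for all names). In nervous tissue their log2 fold changes ran from -0.73 for let-7b-5p (edgeR adjusted p = 0.29) to 1.19 for let-7e-5p (edgeR adjusted p = 0.053), with a median of -0.42 against -0.21 for all names.

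Of 12 miRNAs known from work on fibrosis or matrix genes, as miR-29 is, 0 were higher and 5 lower in nervous than in other adult tissues by edgeR (28.4% and 12.6% of all names), with a median log2 fold change of -2.88 against -0.21 for all names. In embryos 2 were higher and 5 lower (27.0% and 17.2%), with a median of -3.39 against 0.10. The values ranged in embryos from a log2 fold change of -4.90 for miR-192-5p (edgeR adjusted p = 0.068), known from kidney and gut, to 2.31 for miR-214-3p, of mesenchyme (edgeR adjusted p = 0.022). Of 7 miRNAs known to target DNA methyltransferases, 2 were lower in nervous tissue and 2 in embryos (12.6% and 17.2% of all names), and 0 were higher in either (28.4% and 27.0%). Their median log2 fold changes were -1.77 and -2.18, against -0.21 and 0.10 for all names. Their embryo values ranged from -4.07 for miR-143-3p, of smooth muscle (edgeR adjusted p = 0.003), to -0.76 for miR-342-3p (edgeR adjusted p = 0.37). Both comparisons use the same 9 other adult libraries.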

How the data were processed

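The deposited files hold whole-number read counts per mature miRNA name, 1 file per library. The submitters' processing notes name the build mm10 and the tools BWA, bedtools, cutadapt and bcl2fastq 1.8.4. No source used here gives their options or the miRNA annotation. A name missing from a file was taken as 0 reads. The members and lists were chosen with earlier results of these data known.

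Abundance was tested with edgeR 4.0.16 in R 4.3.3 (quasi-likelihood test, TMM scaling, filterByExpr, all 15 libraries, Benjamini-Hochberg adjustment over 693 names, threshold 0.05). Arm usage was tested in edgeR as an arm by class interaction, each library having its own term, for hairpins that reached 20 reads in 8 libraries or more. Shares were compared with exact permutation tests over the 12 adult libraries. CPM values use the reads left after the filter, which kept 86.9% of testis reads and at least 99.8% elsewhere. The fits were tested on simulated data with large planted changes, which does not show their power for small ones. Named outside the family are, for each 3p name, the 3 names with the highest Pearson r, and of each list the highest and lowest fold. Alternatives were DESeq2 1.42.0, limma 3.58.1 on log2 ratios, other scalings, filters and read minimums, and leaving out libraries. Leaving out testis and smooth muscle together was chosen after seeing the data.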

Additional observations from a re-analysis of the deposited data

How the results depend on the processing

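Leaving out 1 library at a time gave 186 to 303 abundance calls over all names (284 in all), 0 to 1 miR-29 names called (1) and 4 to 28 hairpins called for arm usage (14; the 4 came without spinal cord, the 28 without stomach, and leaving out brain gave 6); the 186 came without brain. No paired analysis was possible because the libraries carry no replicate numbers. miR-29b-2-5p kept its direction under all 20 alternatives (log2 fold change 1.31 to 2.02, adjusted p 0.0047 to 0.082) and lost its call in 2, without brain or spinal cord. Scaling to total counts gave 2 called miR-29 names in place of 1. The share of miR-29b-1-5p differed by -23.9 points with at least 20 reads (adjusted exact permutation p = 0.073) and by -23.9 without testis and smooth muscle (adjusted p = 0.10), and by -26.7 to -22.4 without single libraries (adjusted p 0.036 to 0.11).

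Signs of the uncalled members near 0 were not stable. miR-29a-5p was at 0.48 with total counts and 0.064 without a filter, miR-29b-3p at 0.07 with total counts, miR-29a-3p at -0.052 and miR-29b-1-5p at -0.062 with the 12 adult libraries alone, and miR-29a-3p at -0.091 without testis and smooth muscle. Without single libraries, miR-29a-3p ran from -0.27 to 0.20, miR-29a-5p from -0.46 to 0.11 and miR-29b-1-5p from -0.17 to 0.26. The cause was not tested.

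Log2 folds of the 3p names kept their sign from 11 to 15 and from 15 to 17 days under each scaling. From 11 to 17 days those within counting error of 0 with TMM scaling crossed it, to 0.054 for miR-29c-3p with DESeq2 size factors and -0.0026 for miR-29b-3p with total counts. For miR-29a-3p, 15 over 11 days was -1.59 with total counts, 17 over 15 days was 0.57 with total counts and 0.63 with DESeq2 size factors, and 17 over 11 days was -0.83 with the latter. For miR-29b-3p, 15 over 11 days was -0.37 with total counts and 17 over 15 days 0.43 with size factors. For miR-29c-3p these were -0.50 and 0.43, and 0.37 for 17 over 15 days with total counts. The highest over the lowest adult level was 3.42 and 3.30 for miR-29a-3p with total counts and size factors, 6.74 and 5.16 for miR-29b-3p, and 5.48 and 7.22 for miR-29c-3p. Depth limits the 5p names in embryos and testis, which had as few as 4 and 6 reads.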
